A study of Mus musculus with 3 samples.

Results

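The 6 genes described here encode the platelet-derived growth factor (PDGF) system: the ligands Pdgfa, Pdgfb, Pdgfc and Pdgfd and the receptors Pdgfra and Pdgfrb. They were taken by their symbols from the 32285 genes of the count matrices, and each symbol matched 1 gene. In the GENCODE M21 annotation of GRCm38, Pdgfa and Pdgfra lie on chromosome 5, Pdgfb on 15, Pdgfc on 3, Pdgfd on 9 and Pdgfrb on 18. The samples were 3 single-cell RNA sequencing libraries, replicates 1 to 3, of quadriceps muscle from C57BL/6 wildtype mice. A piece of hindlimb muscle had been removed (volumetric muscle loss, abbreviated VML), the defect was filled with particles of polycaprolactone (PCL), a degradable polyester, and muscle and implant were taken at week 6. All 3 libraries carry this treatment and none is a sham or an untreated control, so the comparisons below are between cell classes within the libraries. The labels do not say whether the replicates were separate animals, and p-values therefore cover only the spread among these 3 libraries, which may be technical in origin.

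PDGFs are secreted as dimers that bind receptor tyrosine kinases on mesenchymal cells. The A and C chains act mainly through the alpha receptor (encoded by Pdgfra), the B chain binds both receptors, and the D chain acts mainly through the beta receptor (encoded by Pdgfrb). The C and D chains are secreted in a latent form and are activated by proteolysis, while the A and B chains are cleaved by furin-like convertases inside the cell. In skeletal muscle Pdgfra is a standard marker of fibro-adipogenic progenitors, endothelial PDGF-B recruits pericytes that carry the beta receptor, and both receptors are known for their part in fibrosis.

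Upstream sequences are shown for Pdgfra, the receptor nearly restricted to fibroblast-like cells here, for Pdgfd, highest in endothelial-like cells, and for Pdgfc, highest in fibroblast-like and tendon cells, so that their starts can be set side by side. Of the 6 members, 4 matched the RefSeq table used (build GRCm38.p6): these 3, on the plus strand, and Pdgfa. Pdgfb and Pdgfrb are named only. Each line gives the 250 bases before the annotated start, 5′ to 3′, in lower case with matches to the motifs below in capitals. The windows lie at chr5:75152001-75152250 for Pdgfra, chr9:6168236-6168485 for Pdgfd and chr3:81036166-81036415 for Pdgfc.
Pdgfra: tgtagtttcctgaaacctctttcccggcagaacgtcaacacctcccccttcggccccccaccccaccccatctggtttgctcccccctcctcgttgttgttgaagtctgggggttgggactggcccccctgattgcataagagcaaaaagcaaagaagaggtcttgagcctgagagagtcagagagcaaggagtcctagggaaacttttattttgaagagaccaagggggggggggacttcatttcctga
Pdgfd: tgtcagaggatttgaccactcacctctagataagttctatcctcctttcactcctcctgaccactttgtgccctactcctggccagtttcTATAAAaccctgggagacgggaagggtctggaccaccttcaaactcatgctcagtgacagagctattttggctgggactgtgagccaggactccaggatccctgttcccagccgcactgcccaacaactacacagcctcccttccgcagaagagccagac
Pdgfc: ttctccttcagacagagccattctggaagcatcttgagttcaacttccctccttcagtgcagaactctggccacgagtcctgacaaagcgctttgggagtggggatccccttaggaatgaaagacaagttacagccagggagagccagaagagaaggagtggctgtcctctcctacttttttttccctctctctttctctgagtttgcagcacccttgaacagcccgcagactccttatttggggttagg
The TATA box TATAAA was searched on both strands, and 12.4% of the 32851 windows of this length in the table held it. The Pdgfd window held 1 copy, which begins 160 bases before the start. None of the other motifs searched, given next with their shares, was found in the 3 windows. The GC box GGGCGG is present in 32.7% of all windows and the AP-1 motif TGACTCA in 4.46%. The E-box CACGTG is present in 6.02%, the ETS-type motif AGGAAG in 29.5% and the RUNX-type motif TGTGGT in 14.0%, each counted on either strand. A match is a description of the letters and not evidence of a binding site.

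After filtering, 17955 cells remained (5658, 7691 and 4606 in replicates 1, 2 and 3), and 13, 13 and 10 barcodes were shared between pairs of libraries. Cells were clustered and named without the 6 members and without the PDGF pathway genes. The 4 classes compared were macrophage-like cells (3232), endothelial-like cells (623, blood vessels), mural-like cells (333, pericytes and smooth muscle of vessel walls) and fibroblast-like cells (9879). All 12 macrophage, 11 endothelial, 13 mural and 11 fibroblast markers had their highest mean level in their own class. The classes had been named from these same lists, so that outcome was largely fixed in advance and is no separate support for the names. Median depth was 12167.5 UMIs (unique molecular identifiers, 1 per captured molecule) per cell in macrophage-like, 14086 in endothelial-like, 14780 in mural-like and 26598 in fibroblast-like cells. The suspension had been split by CD45, a leukocyte surface protein, and remixed 1:1, so shares of immune and stromal cells reflect that step. Some subclusters carried another class's markers, and results that rest on them are given with and without them.

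Pdgfa was most abundant in mural-like cells. Levels are given as CPM, UMIs of the gene per 1000000 UMIs of a class in 1 library, with TMM-scaled totals. Pdgfa stood at 65.4, 62.8 and 62.3 CPM in macrophage-like cells of replicates 1, 2 and 3, at 60.7, 59.5 and 36.5 CPM in endothelial-like cells, at 289, 227 and 257 CPM in mural-like cells and at 61.0, 65.8 and 51.8 CPM in fibroblast-like cells. All 3 mural values lay far above every value of the other classes, whose ranges overlapped. In edgeR's quasi-likelihood test with the library as a block, mural-like cells exceeded fibroblast-like cells by 2.11 ± 0.13 (log2 difference ± SE; Benjamini-Hochberg adjusted p = 4.42e-08, higher in 3 of 3 libraries). Against mural-like cells, Pdgfa was lower by a log2 difference of -2.01 ± 0.13 in macrophage-like cells (adjusted p = 2.88e-08) and of -2.29 ± 0.14 in endothelial-like cells (adjusted p = 5.48e-08). Macrophage-like and fibroblast-like cells differed by 0.10 ± 0.13 (adjusted p = 0.476), endothelial-like and fibroblast-like cells by -0.17 ± 0.14 (adjusted p = 0.291), and macrophage-like and endothelial-like cells by 0.27 ± 0.14 (adjusted p = 0.103). None of those last differences passed the test.

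Pdgfb was a transcript of endothelial-like and macrophage-like cells. It stood at 106, 92.9 and 97.1 CPM in macrophage-like cells, at 198, 166 and 185 CPM in endothelial-like cells, at 30.3, 14.5 and 22.5 CPM in mural-like cells and at 0.439, 0.220 and 0.266 CPM in fibroblast-like cells. The 4 classes did not overlap in any library. Against fibroblast-like cells, which held 81 Pdgfb UMIs in all, Pdgfb was higher by 8.34 ± 0.17 in macrophage-like cells (adjusted p = 5.87e-13), by 9.23 ± 0.17 in endothelial-like cells (adjusted p = 6.11e-13) and by 6.17 ± 0.25 in mural-like cells (adjusted p = 7.19e-10), each on the log2 scale by the edgeR test. The difference of macrophage-like from endothelial-like cells was -0.89 ± 0.11 (adjusted p = 1.40e-05, lower in 3 of 3 libraries), short of the log2 difference of 1 required for a call.

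A small subcluster carried much of the mural signal for Pdgfb. Summed over the 11 endothelial markers, mural-like cells had 597 to 1054 CPM and endothelial-like cells 7873 to 9136 CPM, with no marker at 0. A mural-like subcluster of 19 cells with 5 endothelial markers among its 20 leading genes held 53 of the 119 mural Pdgfb UMIs. Without the subclusters that carried another class's markers, Pdgfb stood at 14.5, 9.14 and 17.7 CPM in mural-like cells of replicates 1, 2 and 3, still above every fibroblast value. Without the removal of likely doublets the mural mean was 43.5 CPM.

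Pdgfc was highest in fibroblast-like cells among the 4 classes. It stood at 19.8, 18.2 and 29.3 CPM in macrophage-like cells, at 3.36, 2.14 and 3.04 CPM in endothelial-like cells, at 19.6, 8.61 and 7.48 CPM in mural-like cells and at 49.6, 35.3 and 37.9 CPM in fibroblast-like cells. Fibroblast values lay above those of every other class, and macrophage and mural values overlapped. Endothelial-like cells were lower than fibroblast-like cells by a log2 difference of -3.84 ± 0.31 (edgeR, adjusted p = 7.38e-07), and mural-like cells by -1.79 ± 0.28 (adjusted p = 0.000275). Macrophage-like cells differed from fibroblast-like cells by -0.87 ± 0.17 (adjusted p = 0.000689), less than the log2 difference of 1 for a call. Against endothelial-like cells, Pdgfc was higher in macrophage-like cells by 2.97 ± 0.34 (adjusted p = 1.21e-05).

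Macrophage Pdgfc rested on a few subclusters. A subcluster of 559 cells, 17.3% of macrophage-like cells with 18.9% of all their UMIs, held 694 of their 1013 Pdgfc UMIs. Its 20 leading genes included Pdgfc itself, the efferocytosis receptor gene Mertk and its bridging ligand gene Gas6, beside 3 plasma cell markers (Igkc, Jchain and Mzb1). When all subclusters with another class's markers were left out, the one with Mertk included, macrophage Pdgfc was 3.95, 3.76 and 6.63 CPM in replicates 1, 2 and 3. The log2 difference was then -3.12 from fibroblast-like cells (adjusted p = 1.22e-08) and 0.63 from endothelial-like cells (adjusted p = 0.184), and the direction against mural-like cells turned round, with -1.48 in place of 0.92 ± 0.31.

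Pdgfd separated endothelial-like from macrophage-like cells more widely than any other member. It stood at 0.337, 0.644 and 0.382 CPM in macrophage-like cells, at 308, 369 and 272 CPM in endothelial-like cells, at 89.1, 76.6 and 101 CPM in mural-like cells and at 116, 91.8 and 104 CPM in fibroblast-like cells. Endothelial values were the highest in every library, mural and fibroblast values overlapped, and the macrophage values rested on 18 UMIs in 3232 cells. Without the removal of likely doublets, the macrophage mean was 8.53 CPM, against 0.454 CPM with it. The log2 difference was -9.59 ± 0.24 for macrophage-like against endothelial-like cells (edgeR, adjusted p = 4.42e-12) and -7.98 ± 0.24 for macrophage-like against fibroblast-like cells (adjusted p = 9.82e-12). Endothelial-like cells exceeded mural-like cells by 1.84 ± 0.15 (adjusted p = 5.52e-07) and fibroblast-like cells by 1.61 ± 0.14 (adjusted p = 3.76e-07). Mural-like and fibroblast-like cells differed by -0.23 ± 0.15 (adjusted p = 0.217).

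Of the receptors, Pdgfra was nearly restricted to fibroblast-like cells among the 4 classes. It stood at 3.03, 6.57 and 2.67 CPM in macrophage-like cells, at 1.38, 6.43 and 1.30 CPM in endothelial-like cells, at 4.16, 5.89 and 0 CPM in mural-like cells and at 330, 309 and 345 CPM in fibroblast-like cells. The 0 came from 1478949 UMIs and allows up to 2.03 CPM. Log2 differences from fibroblast-like cells were -6.48 ± 0.35 in macrophage-like cells (edgeR, adjusted p = 6.23e-08), -6.74 ± 0.42 in endothelial-like cells (adjusted p = 3.58e-07) and -6.57 ± 0.47 in mural-like cells (adjusted p = 1.76e-06). No difference among the other 3 classes passed the test (adjusted p between 0.719 and 0.926), and their order changed with the settings.

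Without the removal of likely doublets, mean Pdgfra was 27.6 CPM in macrophage-like, 30.4 CPM in endothelial-like and 28.9 CPM in mural-like cells. In these 3 classes the low Pdgfra values were highest in replicate 2, where fibroblast-like cells were 71.3% of the cells against 40.4% in the library with the smallest share, and the part of that share was not tested. Pdgfra was also highest in replicate 2 in T-like, neutrophil-like, lymphatic endothelial-like and type 1 and type 2 dendritic cell-like cells. It was 2.20, 16.6 and 1.25 CPM in T-like and 5.92, 9.17 and 1.66 CPM in neutrophil-like cells in replicates 1, 2 and 3. Monocyte-like cells did not follow this order, with 1.89, 1.51 and 1.55 CPM, nor did muscle fibre-like cells, with 6.70, 0 and 3.89 CPM. A macrophage-like subcluster with 6 fibroblast markers held 52 of the 156 macrophage Pdgfra UMIs. Without the subclusters that carried another class's markers, macrophage-like cells had 2.21, 3.20 and 1.95 CPM of Pdgfra in the same order. Endothelial-like cells then had 1.28, 2.30 and 1.40 CPM and mural-like cells 4.82, 5.77 and 0 CPM. Replicate 2 was still the highest in each class, by less in macrophage-like and endothelial-like cells. The share of cells with a Pdgfra UMI was 4.33% ± 1.31 in macrophage-like cells (SD, n = 3) and 1.77% ± 1.06 in neutrophil-like cells, a type not known to use the gene. Median depth was 12167.5 UMIs in the macrophage-like and 5137 in the neutrophil-like cells. With each cell thinned to 1000 UMIs, which left out 157 of 3232 and 25 of 957 cells, the shares were 0.610% ± 0.368 and 0.345% ± 0.597. These ranges overlapped and rest on few cells with a UMI, too few to tell the classes apart.

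Pdgfrb marked mural-like cells first and fibroblast-like cells second. It stood at 3.71, 7.98 and 5.22 CPM in macrophage-like cells, at 28.3, 12.4 and 33.8 CPM in endothelial-like cells, at 707, 744 and 660 CPM in mural-like cells and at 108, 131 and 136 CPM in fibroblast-like cells. The 4 classes did not overlap. Mural-like cells exceeded fibroblast-like cells by 2.50 ± 0.27 on the log2 scale (edgeR, adjusted p = 3.18e-05, higher in 3 of 3 libraries). Endothelial-like cells were lower than mural-like cells by -4.86 ± 0.32 (adjusted p = 9.44e-07) and than fibroblast-like cells by -2.36 ± 0.30 (adjusted p = 7.86e-05). Macrophage-like cells were lower than fibroblast-like cells by -4.56 ± 0.33 (adjusted p = 4.60e-07).

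The endothelial Pdgfrb signal came largely from 27 cells. Summed over the 13 mural markers, endothelial-like cells had 376 to 1127 CPM and mural-like cells 17205 to 18555 CPM, with no marker at 0. A subcluster with 6 mural markers among its 20 leading genes, median 26817 UMIs per cell, held 251 of the 283 Pdgfrb UMIs of blood and lymphatic endothelial-like cells. Without the subclusters that carried another class's markers, endothelial-like cells had 1.06, 2.3 and 3.74 CPM in replicates 1, 2 and 3. The difference of macrophage-like from endothelial-like cells, called at -2.21 ± 0.36 with them (adjusted p = 0.000350), was then 0.98, in the opposite direction.

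Counted per comparison, members passed the test (adjusted p under 0.05 and a log2 difference of at least 1 in size) in 4 of 6 cases for macrophage-like against fibroblast-like cells, where 45.3% of all 14249 genes tested passed. For endothelial-like against fibroblast-like cells 5 of 6 passed (33.9% of all genes), for mural-like against fibroblast-like cells 5 of 6 (27% of all genes) and for endothelial-like against mural-like cells 5 of 6 (28.6% of all genes). For macrophage-like against endothelial-like cells 3 of 6 passed (40.5% of all genes), and for macrophage-like against mural-like cells 4 of 6 (45.9% of all genes). Without the subclusters that carried another class's markers, 1 of 6 passed for macrophage-like against endothelial-like cells and 5 of 6 in each of the other 5 comparisons. The share of all genes that passed in that setting is not given here, so its counts are not read as a result about the members. That setting leaves out the macrophage-like subcluster with Mertk, which held 694 of the 1013 macrophage Pdgfc UMIs.

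**Figure D1:**
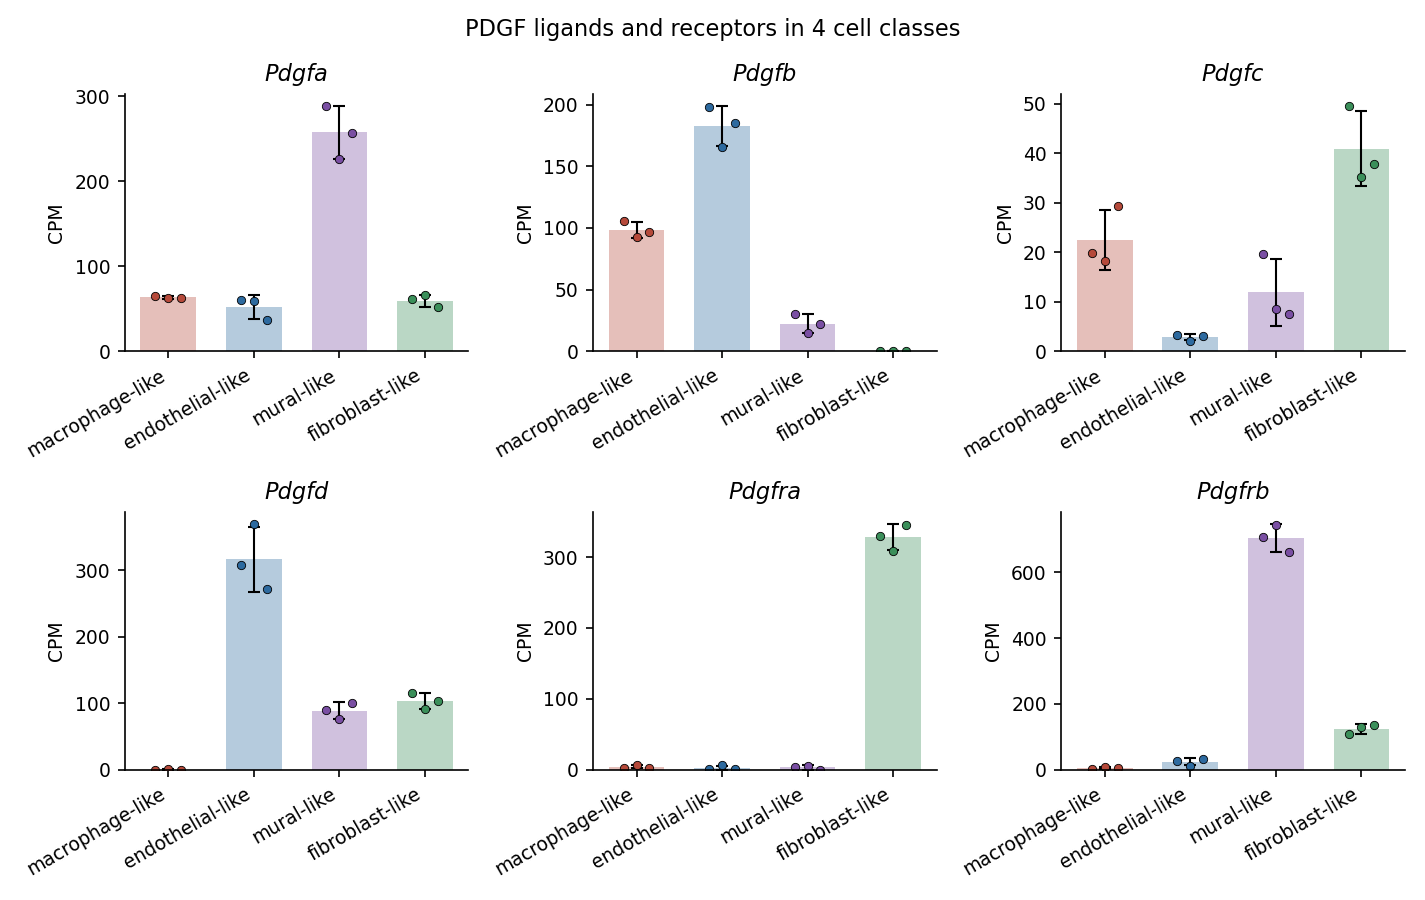
Levels of the 6 genes in CPM (vertical axes, linear) in macrophage-, endothelial-, mural- and fibroblast-like cells; points are replicates 1 to 3 from left to right, bars the mean and whiskers the SD over 3 libraries. Pdgfb and Pdgfd peak in endothelial-like cells, Pdgfa and Pdgfrb in mural-like cells, and Pdgfc and Pdgfra in fibroblast-like cells.

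Because the classes differed in size, the class with the highest level was not always the one that held most of a gene's UMIs. Over all genes, fibroblast-like cells held 290753610 UMIs, macrophage-like cells 50079810, endothelial-like cells 10632513 and mural-like cells 5105318. Fibroblast-like cells thus held most UMIs of any kind. Their Pdgfa level over all libraries, 58.5 CPM unscaled, was close to the 56.4 CPM of macrophage-like cells. Fibroblast-like cells held 70.8% ± 11.4 of Pdgfa UMIs (SD, n = 3) and mural-like cells 6.43% ± 1.68. They also held 84.9% ± 2.54 of Pdgfd UMIs, against 11.0% ± 3.04 in endothelial-like cells. Macrophage-like cells held 59.7%, 40.5% and 67.6% of Pdgfb UMIs in replicates 1, 2 and 3 and endothelial-like cells 27.2%, 39.1% and 18.9%, so the shares were nearly equal in replicate 2. Both together held 84.3% ± 4.09. Fibroblast-like cells held 86.3% ± 7.0 of Pdgfc, 99.1% ± 0.185 of Pdgfra and 86.1% ± 3.06 of Pdgfrb UMIs, and mural-like cells 10.2% ± 1.87 of Pdgfrb. The shares depend on the 1:1 remix of the CD45 fractions and on how well each type survived dissociation, which was not tested.

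**Figure D2:**
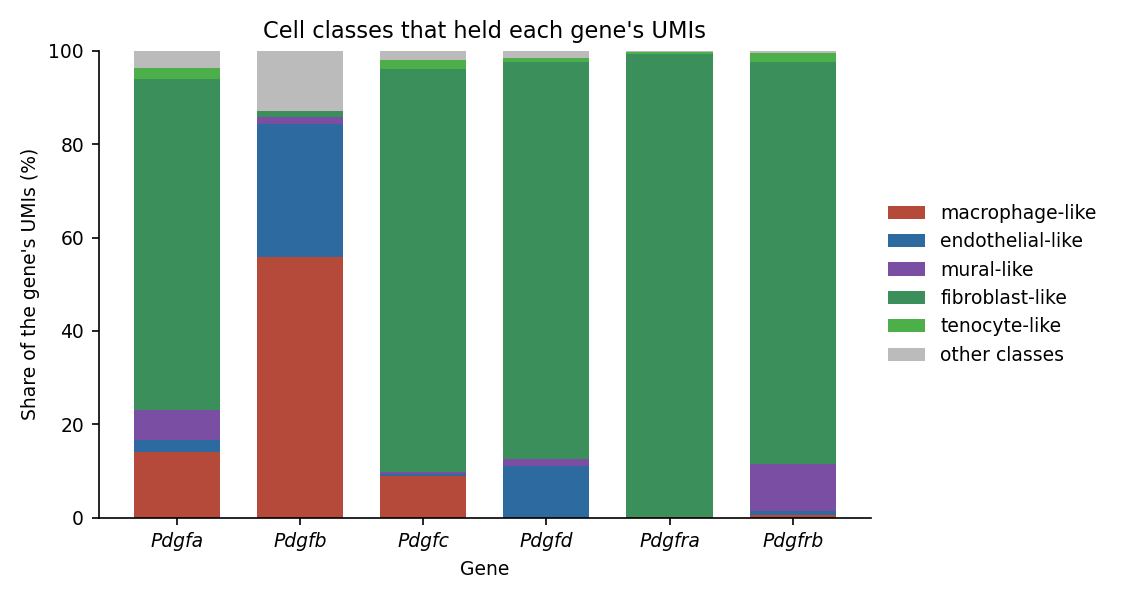
Share of each gene's UMIs (percent, mean over 3 libraries) held by 5 named classes and by all other cells, as stacked bars. Fibroblast-like cells hold most UMIs of every gene except Pdgfb, for which macrophage-like and endothelial-like cells hold 84.3%. Fibroblast-like cells also hold most UMIs over all genes.

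Across all 12 classes with at least 20 cells in every library, levels scaled together showed further sources. For Pdgfa the order was mural-like (256 CPM), tenocyte-like (139 ± 17.7, n = 3; tendon cells) and fibroblast-like cells (61.1), with no overlap between these neighbours. Fibroblast-like, muscle fibre-like (53.9), macrophage-like (53.9) and endothelial-like cells (50.9) overlapped. For Pdgfb endothelial-like (178 CPM) and macrophage-like cells (83.7) were followed, without overlap, by type 2 dendritic cell-like cells (cDC2, 30.7 ± 9.38), whose range overlapped that of T-like cells (27.0 ± 2.80), a class that also held natural killer cell genes. Migratory dendritic cell-like cells, under 20 cells in replicate 2 and so not on this scale, had 72.2, 40.2 and 49.5 CPM of Pdgfb in replicates 1, 2 and 3, on 71 UMIs.

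Tenocyte-like cells were the leading class for Pdgfc, with 58.6, 59.5 and 66.2 CPM in replicates 1, 2 and 3, all above the fibroblast-like values, whose mean was 42.0 CPM. Lymphatic endothelial-like cells had 0 Pdgfc UMIs, which allows up to 0.573 CPM, and muscle fibre-like cells had 0, which allows up to 3.01 CPM. For Pdgfd the endothelial-like cells (308 CPM) stood apart, and fibroblast-like (107), tenocyte-like (89.0), mural-like (88.4) and lymphatic endothelial-like cells (69.5 ± 34.1) overlapped in turn. Tenocyte-like cells were second for Pdgfra, with 73.5, 112 and 61.7 CPM, and for Pdgfrb, with 179, 209 and 179 CPM. Neither range overlapped that of the class above or below. Schwann-like cells, with 40 cells and too few for this scale, had 41, 7 and 72 Pdgfa UMIs, or 226, 50.2 and 344 CPM in replicates 1, 2 and 3. These values lay far apart. The pooled level of 227 CPM was 226.7 CPM without replicate 1, 289.5 CPM without replicate 2 and 149.8 CPM without replicate 3.

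**Figure D3:**
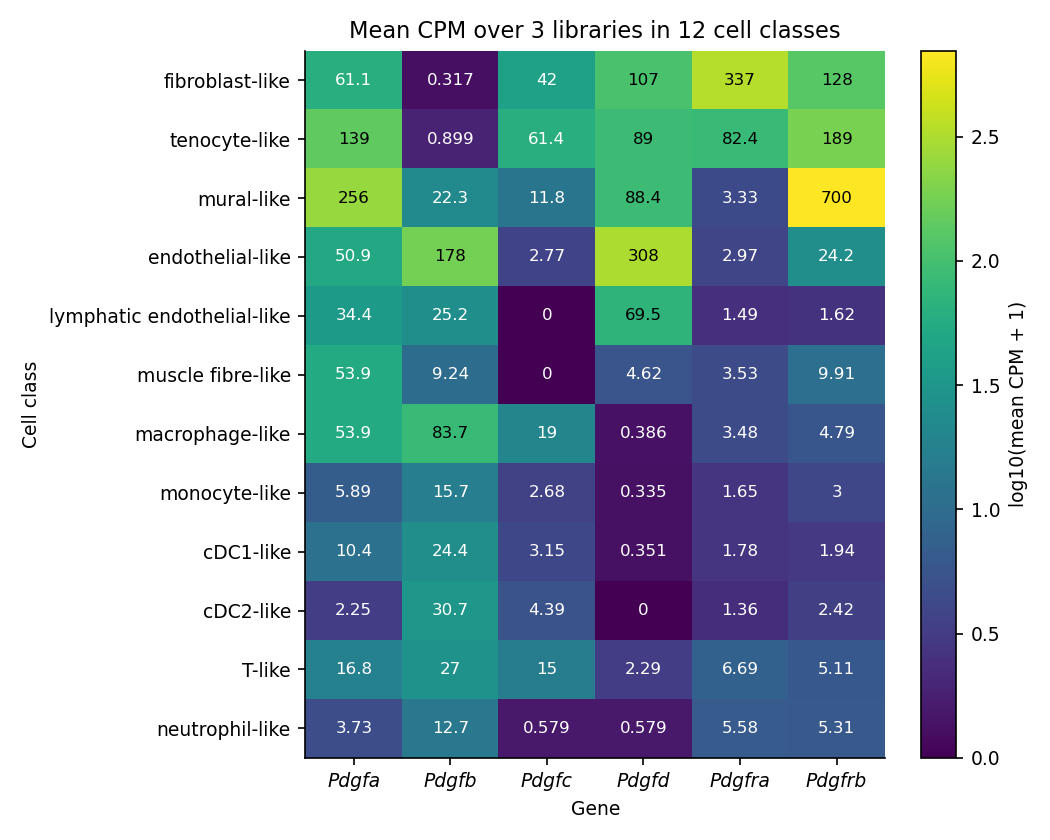
Mean CPM over 3 libraries of each gene (columns) in 12 cell classes (rows), with the colour giving log10(mean CPM + 1). The endothelial-like row is brightest for Pdgfb and Pdgfd, the mural-like row for Pdgfa and Pdgfrb, the tenocyte-like row for Pdgfc and the fibroblast-like row for Pdgfra.

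At the level of single cells, most fibroblast-like cells had UMIs of both receptors: 81.8%, 78.3% and 82.5% in replicates 1, 2 and 3, against 1.58%, 2.64% and 2.32% with neither. Ligands were also detected in the cells that had UMIs of a receptor. For the pairs named above as known partners, Pdgfa and Pdgfra were found together in 41.2%, 38.0% and 39.3% of fibroblast-like cells and Pdgfd and Pdgfrb in 47.2%, 42.2% and 46.5%. Pdgfd and Pdgfrb were found together in 35.1%, 26.0% and 32.2% of mural-like cells. Some pairs that are not the main partners were more frequent, with Pdgfd and Pdgfra in 53.9%, 48.4% and 51.3% of fibroblast-like cells and Pdgfa and Pdgfrb in 77.3%, 85.6% and 78.9% of mural-like cells. A pair's share depends on how often each gene is detected, so this order is not read as a preference. Of fibroblast-like cells, 15.1%, 16.4% and 13.7% had Pdgfra without Pdgfrb, and 1.53%, 2.72% and 1.52% had Pdgfrb without Pdgfra. Of endothelial-like cells, 57.7%, 54.1% and 48.8% had both Pdgfb and Pdgfd. Of macrophage-like cells, 25.6%, 22.4% and 21.6% had both Pdgfa and Pdgfb, and 7.72%, 5.96% and 6.11% had both Pdgfb and Pdgfc. Few of them had Pdgfc at all, with 4.27%, 5.63% and 5.72% having it without Pdgfb. These shares rise with depth, so they were not compared between classes.

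At 1000 UMIs per cell, Pdgfb was detected in 8.24% ± 1.67 of macrophage-like, 16.2% ± 3.86 of endothelial-like and 0.0146% ± 0.0254 of fibroblast-like cells. In neutrophil-like cells it was 0.138% ± 0.239, and the mean fibroblast share was no higher than that. At the same depth Pdgfrb was detected in 46.3% ± 4.21 of mural-like and 11.6% ± 1.16 of fibroblast-like cells. Without thinning, these Pdgfb shares were 49.6% ± 3.78 in macrophage-like, 65.7% ± 0.696 in endothelial-like, 0.717% ± 0.225 in fibroblast-like and 1.97% ± 0.414 in neutrophil-like cells, and the Pdgfrb shares were 92.3% ± 4.17 in mural-like and 82.8% ± 1.59 in fibroblast-like cells.

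Fibroblast-like cells were not uniform, and Pdgfa and Pdgfd were high in different subclusters. Each of the 9 subclusters with at least 20 cells in every library was compared with the averaged log levels of the other 8, again by the edgeR test with the library as a block. A subcluster is called led by genes that are among its 20 leading ones. Pdgfa was highest in a subcluster led by Mmp13, Cxcl5, Spp1 and Tnc (osteopontin and tenascin C among them), with 143, 151 and 124 CPM in replicates 1, 2 and 3. The same cells had the lowest Pdgfd, with 15.5, 20.2 and 13.7 CPM. In a subcluster whose leading genes included Pi16 and Dpp4, known markers of a progenitor-like fibroblast state, Pdgfa was lowest, at 3.98, 3.78 and 3.1 CPM, and Pdgfd highest, at 291, 205 and 281 CPM. The values of these subclusters did not overlap for either gene.

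The log2 differences in the Spp1- and Tnc-led subcluster were 2.41 ± 0.09 for Pdgfa (adjusted p = 2.75e-15) and -2.38 ± 0.16 for Pdgfd (adjusted p = 1.14e-10). In the Pi16-led subcluster they were -3.52 ± 0.18 for Pdgfa (edgeR, adjusted p = 2.30e-13), 2.05 ± 0.11 for Pdgfd (adjusted p = 2.71e-12) and 1.75 ± 0.13 for Pdgfc (adjusted p = 6.47e-10). Median depth was 44136 UMIs per cell in the Spp1- and Tnc-led and 23022 in the Pi16-led subcluster, and its part in the levels was not tested. Of all 15452 genes tested, 15.5% were called in the Spp1- and Tnc-led and 15.3% in the Pi16-led subcluster.

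Across the 9 subclusters, log2 mean levels of Pdgfa and Pdgfd had a Pearson correlation of -0.72, given as a description of means that share the same 3 libraries. Other pairs of members ran from -0.71 (Pdgfc and Pdgfrb) to 0.58 (Pdgfra and Pdgfrb), with Pdgfa and Pdgfra at -0.64. Cells of the Spp1- and Tnc-led subcluster were 13.7% of fibroblast-like cells and held 21.3% of all their UMIs and 54.9% of their Pdgfa UMIs. Cells of the Pi16-led subcluster were 18.8% and held 14.8% of all UMIs, 35.1% of Pdgfd and 30.4% of Pdgfc UMIs.

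Further subclusters moved in part of this pattern. Cycling cells, led by Top2a and Mki67, had Pdgfa at 89.4 ± 17.6 CPM (log2 difference 1.70 ± 0.11, edgeR, adjusted p = 9.99e-12; 19.1% of all genes called) and Pdgfd at 21.8 ± 6.23 CPM (-1.95 ± 0.17, adjusted p = 5.71e-09). A subcluster led by the elastic fibre genes Eln and Mfap4 had Pdgfd at 179 ± 19.4 CPM (1.45 ± 0.12, adjusted p = 4.27e-09; 8.24% of all genes). Interferon-response cells, led by Ifit3 and Cxcl10, had Pdgfd at 137 ± 24.3 CPM (1.01 ± 0.14, adjusted p = 1.58e-05; 6.15% of all genes), close to the limit for a call.

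Cells led by Abca8a, Bmp5 and Myoc had low Pdgfa, at 9.09 ± 1.64 CPM (-2.01 ± 0.19, edgeR, adjusted p = 1.38e-08; 14.6% of all genes), and low Pdgfc, at 9.88 ± 5.12 CPM (-1.81 ± 0.25, adjusted p = 4.70e-06). Cells led by Saa3 and Mmp3 had Pdgfc at 13.6 ± 3.71 CPM (-1.32 ± 0.17, adjusted p = 6.81e-06; 7.13% of all genes). A subcluster of 156 cells led by Pde4c and Ppm1n had Pdgfa at 70.0, 86.4 and 27.2 CPM (1.18 ± 0.16, adjusted p = 5.78e-06; 11.5% of all genes), and without replicate 2 it missed the limit. In the subcluster led by Adamts18 and Lrrc15, Pdgfa and Pdgfd differed by 0.81 ± 0.11 and -0.77 ± 0.14, below the size for a call (7.6% of all genes). Just outside that limit, Pdgfd in the Saa3- and Mmp3-led cells differed by 0.99 ± 0.12.

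The receptors varied less among fibroblast-like subclusters than the ligands. Mean Pdgfra ranged from 194 CPM in the cycling to 647 CPM in the Abca8a-led subcluster, where it was 689, 604 and 647 CPM, above every other subcluster in each library (log2 difference 1.10 ± 0.05, edgeR, adjusted p = 5.25e-15). This was the single receptor call in 18 tests. Mean Pdgfrb ranged from 88.9 CPM in the Pi16-led to 168 CPM in the Saa3-led subcluster, and no subcluster passed the test. The highest mean exceeded the lowest 38.4 times for Pdgfa, 15.7 times for Pdgfd, 8.76 times for Pdgfc, 3.33 times for Pdgfra and 1.89 times for Pdgfrb. Pdgfb was too sparse in these cells for the test.

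**Figure D4:**
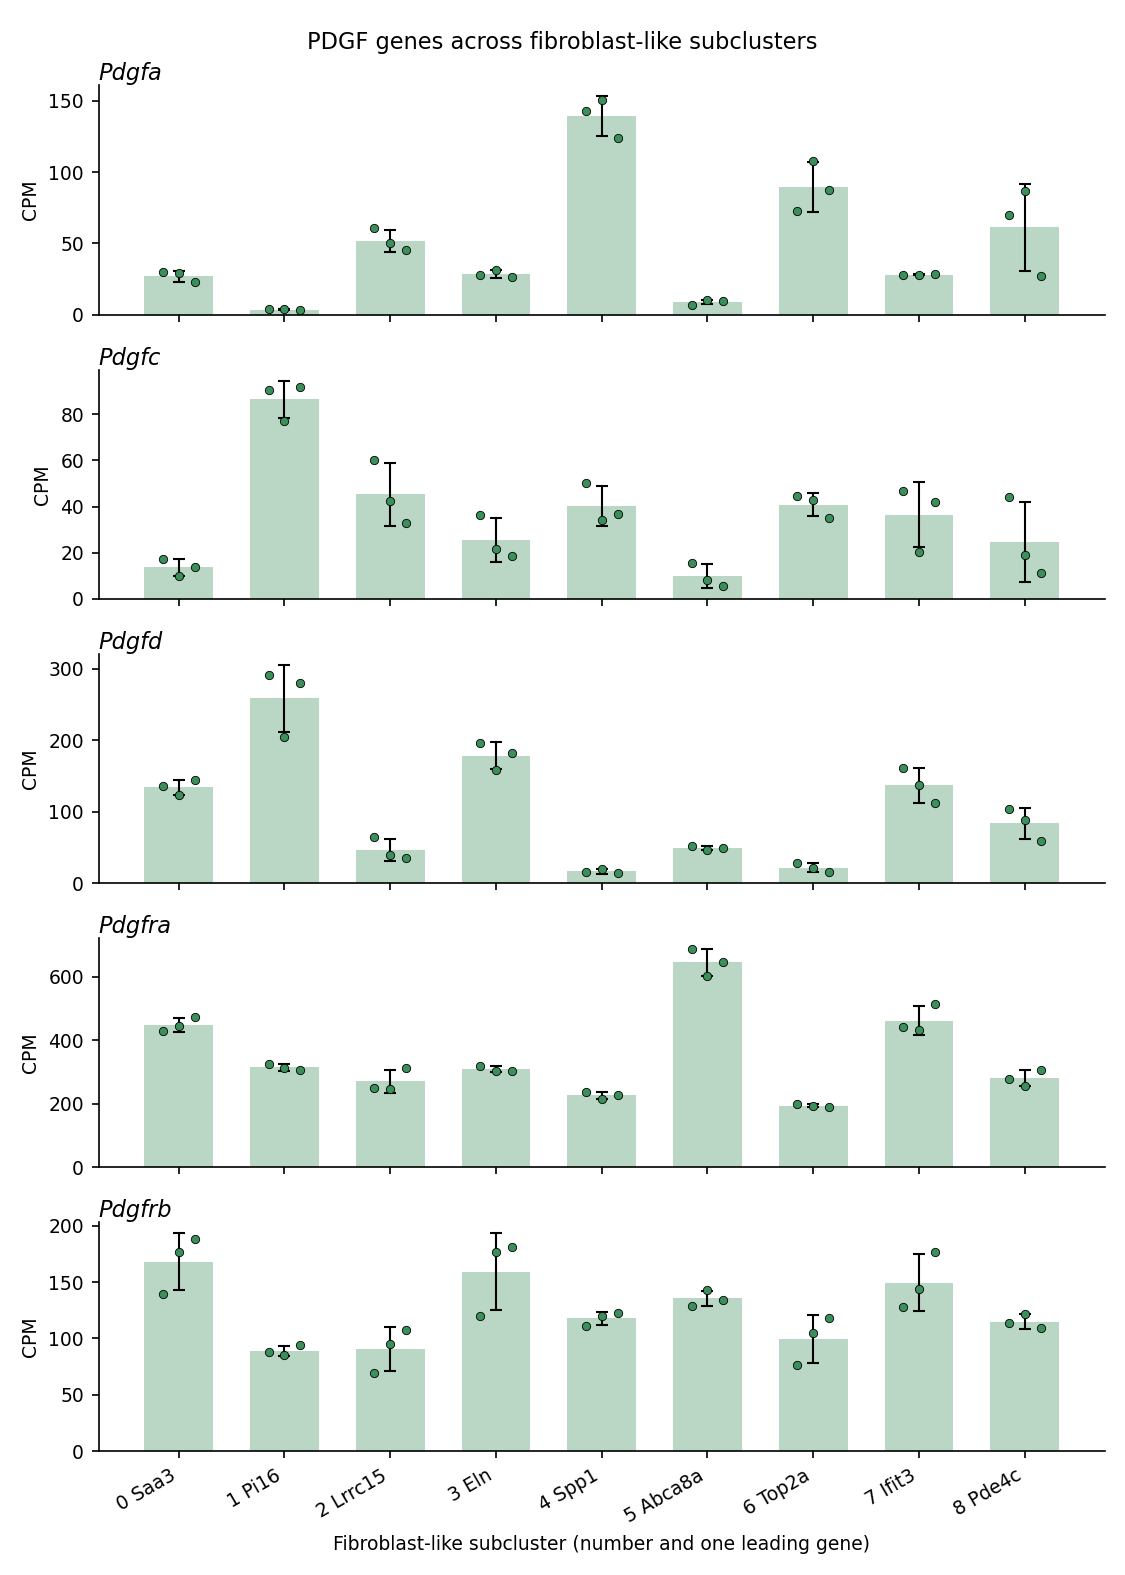
Levels of 5 genes in CPM (linear axes) across 9 fibroblast-like subclusters, each named by its number and a leading gene; points are replicates 1 to 3 from left to right, bars the mean and whiskers the SD. Pdgfa is high in the Spp1- and Top2a-led subclusters where Pdgfd is low, and Pdgfrb is the flattest.

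Among macrophage-like subclusters, Pdgfc varied most and Pdgfb least. The subcluster with Mertk and plasma cell markers described above had Pdgfc at 64.7, 62.4 and 87.6 CPM, above every other subcluster (log2 difference 2.91 ± 0.16, edgeR, adjusted p = 7.75e-11, where 4.87% of all genes were called). Cells led by Mmp12 and Ocstamp, genes of implant-type and fusing macrophages, had 2.73, 5.0 and 6.65 CPM (-2.06 ± 0.24, adjusted p = 8.03e-07; 6.47% of all genes). Cells led by Ccl24 had 3.54, 0.553 and 4.39 CPM (-2.63 ± 0.28, adjusted p = 4.57e-07; 6.48% of all genes). A subcluster with 6 neutrophil markers had 31.5 ± 8.94 CPM (1.47 ± 0.23, adjusted p = 6.01e-05; 5.27% of all genes).

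Mean Pdgfb lay between 67.5 and 97.5 CPM in the 5 subclusters tested, with no call. Pdgfa was highest in the Mmp12-led cells, at 71.7, 75.2 and 77.6 CPM, a log2 difference of 0.77 ± 0.11 (adjusted p = 1.39e-05) that is below the size for a call. These cells were 29.0% of macrophage-like cells and held 42.8% of all their UMIs, against 54.2% of their Pdgfa and 41.2% of their Pdgfb UMIs. Pdgfrb was called in 1 subcluster (2.66 ± 0.30, edgeR, adjusted p = 1.22e-07; 7.68% of all genes), at 24.9 ± 10.4 CPM, and that subcluster had 6 fibroblast markers among its 20 leading genes and a median of 2622.5 UMIs per cell.

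Pdgfb and Pdgfd were both called higher in 1 endothelial-like subcluster and both called lower in another, and had opposite signs in the other two. A subcluster led by Esm1, Col13a1 and Prnd, known as genes of tip-like and growing vessels, had Pdgfb at 307, 250 and 317 CPM (log2 difference 2.10 ± 0.16, edgeR, adjusted p = 1.35e-11; 10.4% of all genes called). Its Pdgfd was 374, 446 and 355 CPM (1.83 ± 0.29, adjusted p = 0.00291) and its Pdgfa 92.8, 86.0 and 47.1 CPM (1.5 ± 0.25, adjusted p = 7.41e-06). Its Pdgfb and Pdgfd values lay above those of the other 3 subclusters tested in every library.

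The lymphatic subcluster, led by Prox1, Reln and Mmrn1, had Pdgfb at 20.1, 44.4 and 23.1 CPM (-2.25 ± 0.22, edgeR, adjusted p = 1.15e-09; 22.9% of all genes) and Pdgfd at 46.5, 65.3 and 123 CPM (-1.39 ± 0.43, adjusted p = 0.0359). The Pdgfd call was lost without replicate 2 (-1.15, adjusted p = 0.0970). The venular subcluster, led by Selp, Sele and Ackr1, had Pdgfb at 68.8 ± 13.3 CPM (-0.71 ± 0.20, adjusted p = 0.0105) and Pdgfd at 253 ± 80.6 CPM (0.97 ± 0.32, adjusted p = 0.0838, higher in 3 of 3 libraries), and neither was a call (9.42% of all genes). A subcluster led by ribosomal protein genes, with a median of 1990 UMIs per cell, had a called Pdgfrb difference (4.04 ± 1.10, adjusted p = 0.00788; 9.94% of all genes) that rested on 5 UMIs and was lost without replicate 1 or without replicate 3. Its differences for Pdgfb (0.86 ± 0.36, adjusted p = 0.129) and Pdgfd (-1.41 ± 0.70, adjusted p = 0.269) did not pass.

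Other endothelial-like subclusters had too few cells in a library for a test, and their levels are plain CPM over all cells. The capillary-like subcluster, with Car4 and also 2 macrophage markers among its leading genes, had 282 CPM of Pdgfb and 506 CPM of Pdgfd in 77 cells. The arterial-like subcluster, with Gja5, Bmx and Sema3g, had 248 CPM of Pdgfb and 797 CPM of Pdgfd in 33 cells, with Pdgfd at 742, 1006 and 589 CPM in replicates 1, 2 and 3.

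**Figure D5:**
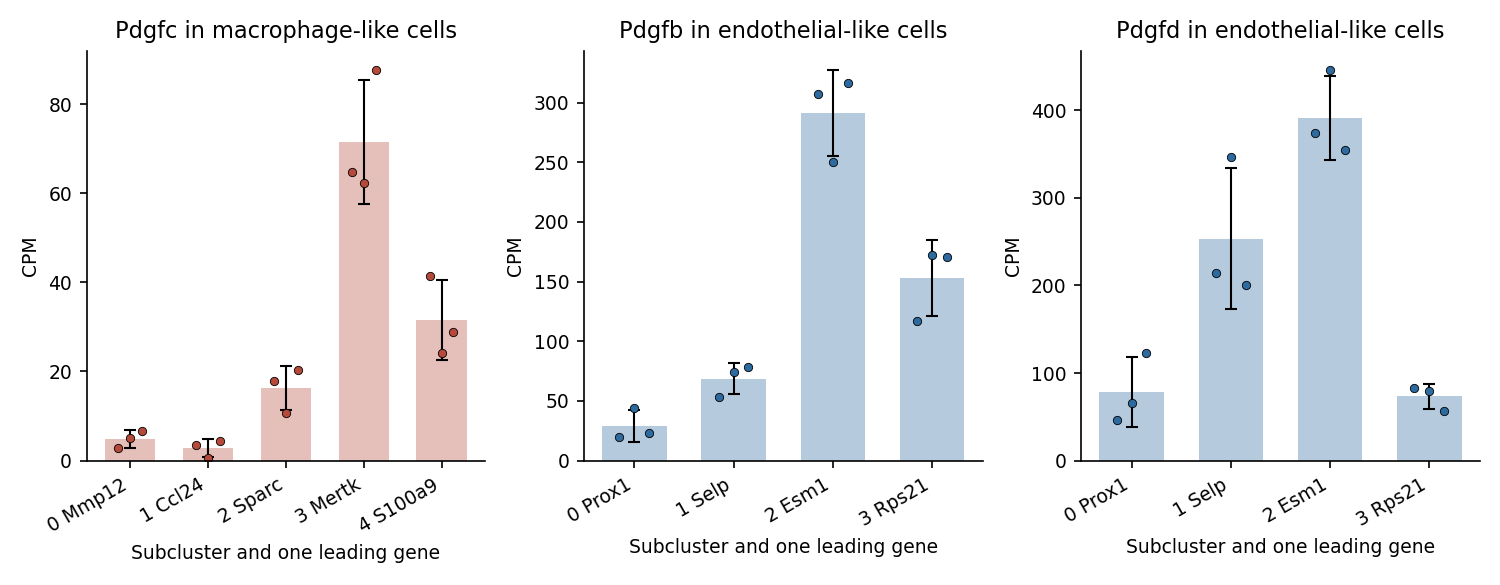
Pdgfc in 5 macrophage-like subclusters and Pdgfb and Pdgfd in 4 endothelial-like subclusters, in CPM on linear axes; points are replicates 1 to 3 from left to right, bars the mean and whiskers the SD. Pdgfc is highest in the macrophage-like subcluster with Mertk and plasma cell markers, and Pdgfb and Pdgfd in the Esm1-led endothelial-like cells.

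Mural-like cells were split by their markers into a smooth muscle-like subcluster and 4 pericyte-like ones, leaving out the subcluster of 19 cells with endothelial markers (133 CPM of Pdgfb and 296 CPM of Pdgfd). The smooth muscle-like side had 14, 26 and 22 cells, under 20 in replicate 1, so no test was made and the levels are plain CPM. Pdgfrb was 498, 307 and 354 CPM in smooth muscle-like cells and 907, 898 and 894 CPM in pericyte-like cells, without overlap. Pdgfb was 49.0, 29.8 and 40.6 CPM in smooth muscle-like cells and 8.12, 5.46 and 11.0 CPM in pericyte-like cells, on 37 and 29 UMIs. Pdgfd was 61.3, 173 and 254 CPM in smooth muscle-like cells and 74.9, 44.3 and 39.97 CPM in pericyte-like cells, and these ranges overlapped. The pericyte-like Pdgfd came largely from a subcluster of 70 cells, with 148 UMIs and 114 CPM, whose leading genes included Ccl19, Ccl21a and the fibroblast marker Pi16. The other pericyte-like subclusters had 14.5, 22.7 and 24.3 CPM, on 15, 21 and 12 UMIs. Pdgfa was 478, 277 and 281 CPM in smooth muscle-like cells and 298, 231 and 285 CPM in pericyte-like cells, also overlapping.

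Other genes of the pathway were taken from 4 lists with 36 genes, all of which were tested. The counts of calls below stand against 45.3% of all genes called for macrophage-like, 33.9% for endothelial-like and 27% for mural-like against fibroblast-like cells. Of the 7 proteases that can process PDGF chains, 2 were higher and 4 lower in macrophage-like than in fibroblast-like cells (median log2 difference -1.43, against -0.02 over all genes). In endothelial-like against fibroblast-like cells 2 were higher and 4 lower (median -2.20, against -0.04), and in mural-like against fibroblast-like cells 1 was higher and 4 lower (median -1.5, against -0.08). The convertase gene Pcsk5 stood at 1.48 ± 0.491 CPM in macrophage-like and 198 ± 33.6 CPM in fibroblast-like cells (-7.14), and Pcsk6 at 2.05 ± 0.959 CPM in macrophage-like and 126 ± 8.95 CPM in fibroblast-like cells (-6.14). Pcsk6 was also lower in endothelial-like and in mural-like than in fibroblast-like cells (-3.68 in each). The convertase gene Furin went the other way, at 198 ± 14.4 CPM in macrophage-like and 50.5 ± 1.32 CPM in fibroblast-like cells (1.97). Furin stood at 59.2 ± 4.91 CPM in endothelial-like and 42.8 ± 2.41 CPM in mural-like cells.

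Plat, tissue plasminogen activator and a known activator of latent PDGF-C, stood at 7.75 ± 2.23 CPM in macrophage-like and 120 ± 30.7 CPM in mural-like cells (-3.98). Its highest level among the 4 classes was in fibroblast-like cells, at 335 ± 21.5 CPM. Against fibroblast-like cells, Plat was lower in macrophage-like (-5.48), endothelial-like (-2.77) and mural-like cells (-1.50). Plau, urokinase and a known activator of PDGF-D, was lower in mural-like than in fibroblast-like cells (-2.84). St14, the protease matriptase, was higher in endothelial-like than in fibroblast-like cells (3.94) but at a low level, 2.46 ± 1.38 CPM against 0.159 ± 0.0307 CPM.

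Of 5 co-receptors and binding proteins, 1 was higher and 2 lower in macrophage-like, 1 higher and 3 lower in endothelial-like and 2 higher and 2 lower in mural-like than in fibroblast-like cells (median log2 differences -0.13, -1.96 and 0.62). Lrp1, a receptor that associates with the beta receptor, stood at 9.58 ± 1.45 CPM in endothelial-like and 564 ± 16.7 CPM in fibroblast-like cells (-5.88). It was also higher in macrophage-like than in endothelial-like cells (5.74). Cspg4, the pericyte proteoglycan NG2, stood at 2.36 ± 3.09 CPM in endothelial-like and 122 ± 13.4 CPM in mural-like cells (-5.45). Sparc, a matrix protein that binds PDGF-B, stood at 115 ± 39.0 CPM in macrophage-like and 9661 ± 405 CPM in fibroblast-like cells (-6.43).

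Among 15 signalling genes that act next to the receptors, relative to fibroblast-like cells, 2 were called higher and 2 lower in macrophage-like cells, 4 higher and 1 lower in endothelial-like cells, and 2 higher and 0 lower in mural-like cells (medians 0.10, 0.62 and 0.059). These 4, 5 and 2 of 15 genes are shares at or below those over all genes. The Src-family kinases Src and Yes1 were each at their lowest in a different class of the 3 given here. Src stood at 31.3 ± 2.08 CPM in macrophage-like, 1.13 ± 0.365 CPM in endothelial-like and 26.3 ± 0.657 CPM in fibroblast-like cells, and Yes1 at 1.51 ± 0.740, 313 ± 60.0 and 35.4 ± 1.5 CPM in the same classes. The adaptor gene Grb2 was higher in macrophage-like than in fibroblast-like cells (2.50), and Gab1 (1.8) and the kinase subunit gene Pik3r1 (1.74) were higher in mural-like than in fibroblast-like cells.

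Of 9 genes that dampen the receptors, 3 were higher and 4 lower in macrophage-like, 2 higher and 3 lower in endothelial-like and 4 higher and 2 lower in mural-like than in fibroblast-like cells (medians -0.47, -0.39 and 0.55). The Sprouty genes, feedback inhibitors of receptor tyrosine kinases, were higher in mural-like than in fibroblast-like cells. For endothelial-like against mural-like cells, Spry2 (-2.71) and Spry4 (-1.71) were also called, higher in mural-like cells, while Spry1 was not called and its values overlapped. Spry2 stood at 23.6 ± 5.54 CPM in endothelial-like, 151 ± 38.9 CPM in mural-like and 64.5 ± 2.25 CPM in fibroblast-like cells. Spry4 stood at 0.257 ± 0.129 CPM in macrophage-like, 37.1 ± 1.44 CPM in endothelial-like, 120 ± 29.4 CPM in mural-like and 5.21 ± 0.829 CPM in fibroblast-like cells, and Spry1 at 1.11 ± 0.132, 118 ± 26.0, 157 ± 18.1 and 23.0 ± 2.14 CPM in the same order. The log2 difference of mural-like from fibroblast-like cells was 4.55 for Spry4 and 2.77 for Spry1. Every log2 difference named for a pathway gene passed the edgeR test, with adjusted p of 0.000154 or less.

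Genes with the profile most like each member were ranked by Pearson's r of log2(CPM + 1) over 36 class-by-library sums, which share libraries and are given as a description. For Pdgfa they were Smpd1 (0.90), Dag1 (0.89) and Ppp1r12b (0.89), and for Pdgfb Parvb (0.79), Tnfrsf11a (0.79) and Rasa4 (0.78). For Pdgfc they were Mt1 (0.86), Steap3 (0.85) and Fads1 (0.84). For Pdgfd they were Ebf3 (0.97), Zfp423 (0.97) and Mb21d2 (0.96), for Pdgfra Mmp3 (0.96), Has1 (0.95) and Col14a1 (0.95), and for Pdgfrb Cacna1c (0.96), Ndufa4l2 (0.95) and Cdh2 (0.95). The ligands Pdgfa, Pdgfb and Pdgfc thus had weaker best matches than Pdgfd and the receptors.

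Antisense genes overlap exons of Pdgfa (6330403L08Rik), Pdgfc (Gm16000) and Pdgfra (Gm42802) in the GENCODE M21 annotation. The strand use of counting is not given, so reads of a partner may not be told apart. In the 4 classes these partners had 1157, 111 and 20 UMIs, against 21870 for Pdgfa, 12180 for Pdgfc and 90000 for Pdgfra.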

How the data were processed

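Single-cell libraries (10x 3′ v3.1) were deposited as whole-number UMI counts per gene and cell. Per the submitters' processing notes the authors used Cell Ranger 6.1.2, while the file headers name software 7.0.0. The build, annotation, intron setting and strand use of counting were not given in the sources used here. Gene locations use GRCm38.

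From these counts, cells with at least 500 UMIs, 200 genes and at most 20% mitochondrial UMIs were kept, and the highest doublet scores were removed per library at 0.8% per 1000 barcodes (4.86%, 6.92% and 4.00%). Scrublet's automatic threshold had marked 69, 133 and 30 cells. Libraries held 136519688, 192348779 and 104482261 UMIs. Cells were clustered with scanpy 1.11.5 (Leiden, resolution 1.0) without the members and pathway lists, and classes were named from marker lists. Names were rebuilt here and may differ from the study's own. Counts were summed per class and library and tested with edgeR 4.0.16 (quasi-likelihood, TMM, library as block, R 4.3.3), with Benjamini-Hochberg adjustment over all genes tested. A call needed an adjusted p under 0.05 and a log2 difference of at least 1. The fit of 4 classes had 12 sums and 6 residual degrees of freedom. Intervals and floors (3 counts) cover counting error only. A subcluster's log2 difference is taken from the averaged logs of the rest, so it can differ from a ratio of means.

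The library block pairs the sums because classes of 1 number come from the same library. The text names the 6 members and, of each pathway list, the 2 called genes with the largest log2 difference in a contrast. Furin was added because it went against the other convertases named. For each member the text also names the 3 genes with the most similar profile, among genes with at least 10 CPM in the highest class. The members and lists were chosen with earlier results of these data known. Scripts were tested on simulated data. Alternatives were low-count filter, normalization, DESeq2, the block, doublet removal, cell filter, clustering resolution, thinning depth and leaving out libraries or subclusters.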

Additional observations from a re-analysis of the deposited data

How the results depend on the processing

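Most results kept their direction and their side of the threshold, and the cause of each change listed here was not tested. The low counts of Pdgfra outside fibroblast-like cells gave no stable order. Its log2 difference for endothelial-like against mural-like cells ranged from -0.64 to 0.45 when each library was left out and turned to 0.13 without doublet removal, 0.67 with at least 1000 genes per cell and 0.091 at resolution 0.5. For macrophage-like against endothelial-like cells it ranged from -0.077 to 1.11 when each library was left out and turned to -0.078 at resolution 0.5, -0.25 without doublet removal, -0.072 at resolution 2 and -0.11 without clusters of low depth. For macrophage-like against mural-like cells it ranged from -0.20 to 0.47 when each library was left out and turned to -0.12 without doublet removal, -0.60 at resolution 2, -0.70 without subclusters that carried another class's markers and -0.30 without clusters of low depth. Pdgfa for macrophage-like against fibroblast-like cells turned to -0.044 without a low-count filter.

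Alternatives that leave out subclusters were chosen after seeing the data. Without those that carried another class's markers, Pdgfrb for macrophage-like against endothelial-like cells turned to 0.98 and Pdgfc for macrophage-like against mural-like cells to -1.48, and 1 member in place of 3 was called for macrophage-like against endothelial-like cells. The share of all genes called without those subclusters is not given here. Without doublet removal the Pdgfrb call for macrophage-like against endothelial-like cells was lost (-0.082). The Pdgfc call for endothelial-like against mural-like cells was lost without replicate 2 (-2.07, edgeR adjusted p = 0.0779). Pdgfc for macrophage-like against fibroblast-like cells passed the size limit without the subclusters that carried another class's markers (-3.12), without a low-count filter (-1.02), without replicate 3 (-1.14) and at resolution 0.5 (-1.03).

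Within macrophage-like cells, Pdgfa in the subcluster with Mertk ranged from -0.29 to 0.21 when each library was left out and turned to -0.19 without the subclusters with fibroblast or neutrophil markers, which also left 1 in place of 3 higher calls and turned Pdgfb in the Mmp12-led cells to -0.13 and Pdgfrb in the Ccl24-led cells to 0.26. Pdgfb in the subcluster with fibroblast markers ranged from -0.20 to 0.10 when each library was left out. Within fibroblast-like cells, leaving out each library gave -0.12 to 0.052 for Pdgfrb in the Spp1-led and -0.023 to 0.52 for Pdgfc in the Ifit3-led subcluster. Without the Top2a- and Pde4c-led subclusters, Pdgfa turned to 0.15 in the Saa3-led, 0.27 in the Eln-led and 0.23 in the Ifit3-led cells. Within endothelial-like cells, Pdgfa in the lymphatic subcluster ranged from -0.30 to 0.86 when each library was left out and turned to -0.20 without the ribosomal subcluster, and calls of members lower were 4 without a low-count filter, against 2, and 1 to 4 when each library was left out. Without replicate 3, Pdgfd was called higher in the venular subcluster (1.19).

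Without the replicate block, 6437 genes were called for macrophage-like against fibroblast-like cells and 3853 for mural-like against fibroblast-like cells, against 6458 and 3851 with it, and no call of a member changed. The comparison of smooth muscle-like with pericyte-like cells was not run because replicate 1 had 14 smooth muscle-like cells. Pdgfd in macrophage-like and Pdgfb in fibroblast-like cells rest on 18 and 81 UMIs. Over all libraries, unscaled macrophage Pdgfd was 0.359 CPM (95% counting interval 0.213 to 0.568) and fibroblast Pdgfb 0.279 CPM (0.221 to 0.346).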
